A study of Mus musculus with 2 samples.

Results

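Leydig cells are the steroid-making cells of the testis interstitium. They were picked here as the barcodes of a testis single-cell RNA-seq set that carried a full load of Leydig transcripts. A barcode was a member when mitochondrially encoded genes took at most 20% of its UMIs (unique molecular identifiers, each marking 1 captured transcript), when Prm1, Prm2, Tnp1 and Tnp2 of late spermatids stayed together under a fixed limit, and when 9 Leydig genes together had at least 80 UMIs. The 9 genes were Cyp17a1, Cyp11a1, Star, Hsd3b1, Hsd3b6, Hsd17b3, Insl3, Lhcgr and Fabp3. The spermatid limit left members with 16 to 180 such UMIs in KO and 54 to 173 in WT. This rule found 388 members among 35330 barcodes, 349 of 17968 in the Igf2bp1 knockout (KO) library and 39 of 17362 in the wild type (WT) library.

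Both libraries were made from whole testes of mice aged 8 months, dissociated with enzymes and run on the 10x Genomics droplet platform. The KO group carries a conditional knockout of Igf2bp1, the gene of an RNA-binding protein that can stabilise its target mRNAs. The WT group is wild type at the same age. The sources used here give neither the Cre line nor the deleted exons nor the cells that lost the gene. They also leave unclear whether a library pools animals. With 1 library per genotype there is no replicate check, so no p-value is given, and a difference between the libraries cannot be told apart from a difference between animals or preparations.

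Leydig cells turn cholesterol into testosterone. Luteinising hormone acts on the receptor Lhcgr and raises cyclic AMP. STAR then brings cholesterol into the mitochondrion, CYP11A1 cuts its side chain to give pregnenolone, and 3β-hydroxysteroid dehydrogenases, CYP17A1 and HSD17B3 carry the product on to testosterone. The cells also secrete INSL3, a peptide hormone of the relaxin family whose production marks the differentiated Leydig cell. They take up cholesterol from lipoproteins and also make it themselves, under control of the SREBP2 transcription factor.

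The members held 2309371 UMIs in KO and 304855 UMIs in WT. The median member had 6211 UMIs and 2563 genes in KO, against 7228 UMIs and 2639 genes in WT. Mitochondrially encoded genes took a median of 7.84% of a member's UMIs in KO and 9.29% in WT. The protamine and transition protein genes had a median of 75 UMIs per KO member and 93 per WT member, and the lowest WT member had 54. Of the barcode sequences, 106 occur in both libraries. None of them is a member in both, 2 of the 349 KO members carry a sequence that is also in the WT library, and 0 of the 39 WT members carry one from the KO library. The decile of barcodes with the fewest UMIs, taken per library as free RNA, held 729 CPM of the 9 genes in KO and 119 CPM in WT, where CPM is UMIs per 1e+06 UMIs of the same barcodes.

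Members made up 1.97% of the KO barcodes within the mitochondrial limit (349 of 17703, exact Clopper-Pearson 95% interval 1.77 to 2.19%) and 0.229% of those in WT (39 of 17002, 0.163 to 0.313%). These intervals, like every interval below, cover counting error only. The shallowest kept barcode had 1246 UMIs in KO and 943 UMIs in WT, and the enzyme digestion can set how many interstitial cells are freed, so the shares describe these libraries. With a minimum of 160 UMIs for the 9 genes the shares were 1.43% in KO and 0.206% in WT. With a limit of 10% on mitochondrial UMIs they were 1.68% in KO and 0.161% in WT.

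The 9 genes did not separate members as sharply in KO as in WT. In KO, 75 barcodes within the other limits had 40 to 79 UMIs of the 9 genes, against 5 barcodes in WT. The members just inside the limit had 80, 80 and 81 UMIs in KO and 99, 127 and 132 UMIs in WT. The barcodes just outside had 79, 78 and 77 UMIs in KO and 73, 62 and 60 UMIs in WT. A further 7294 KO barcodes carried 1 to 9 UMIs of these genes, against 1593 WT barcodes. The free RNA level of these genes was also higher in KO, and its part in these bins was not tested.

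**Figure D1:**
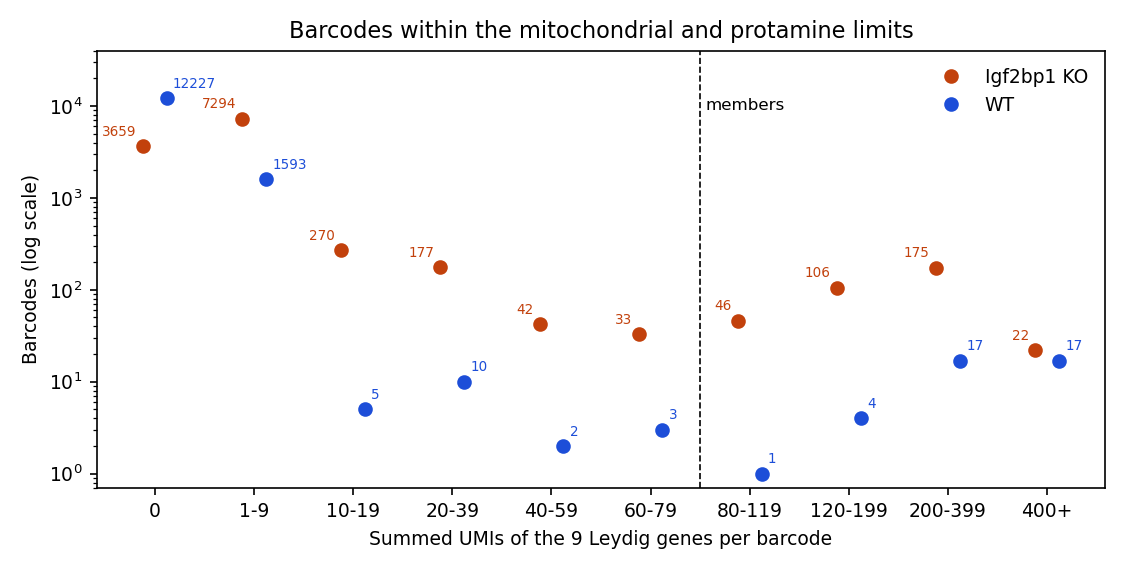
Number of barcodes (vertical axis, log scale) by the summed UMIs of the 9 Leydig genes per barcode (horizontal axis, in bins), for barcodes within the mitochondrial and protamine limits, with KO left of WT in each bin and the number printed beside each point. Members lie right of the dashed line; left of it the KO points lie above the WT points in every bin from 1 UMI on, with 270 KO and 5 WT barcodes at 10 to 19 UMIs.

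The members carried the identity of Leydig cells beyond the genes that chose them. Across both libraries the genes outside the rule that stood highest in members over all other kept barcodes included Prlr (the prolactin receptor), the fatty acid enzymes Fads1, Fads6, Scd1 and Acsbg1, the oxytocin receptor Oxtr, the neutral amino acid transporter Slc7a8 and the peptide hormone Apln. Because the members were chosen on Leydig genes, these levels are a description. Prlr had 998 CPM in KO members and 987 CPM in WT members, against 43.0 CPM in other KO barcodes and 1.26 CPM in other WT barcodes. Slc7a8 had 275 CPM in KO members and 299 CPM in WT members, against 11.1 CPM in other KO barcodes and 0.682 CPM in other WT barcodes. Nr5a1, the steroidogenic factor that drives many steroid enzyme genes, had 89.6 CPM in KO members and 102 CPM in WT members. Prlr, Slc7a8 and Nr5a1 each differed by less than 2-fold between the libraries.

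Markers of other cell types were present in the members at differing levels. The 12 macrophage markers summed to 86.6 CPM in KO members, where the range per member was 0 to 36 UMIs, and to 13.1 CPM in WT members, where it was 0 to 1 UMI. Of these 12 markers 2 had 0 UMIs in KO members, Adgre1 and Cd163, and the rest were detected there. In WT members 9 had 0 UMIs, Adgre1 and Cd163 among them. The lowest decile of barcodes carried 135 CPM of the same markers in KO and 19.2 CPM in WT. As a share of UMIs these markers were thus lower in members. Members were deeper, with a median of 6211 UMIs in KO and 7228 in WT, beside 1301 and 968 in the lowest decile. A lower share therefore does not mean fewer such UMIs per barcode. The 11 endothelial markers summed to 24.2 CPM in KO members and 9.84 CPM in WT members. The 10 B lymphocyte markers summed to 129 CPM in KO members and 82.0 CPM in WT members, above the lowest decile at 70.2 CPM in KO and 30.6 CPM in WT. The 10 markers of peritubular myoid cells, the contractile cells around the tubules, summed to 446 CPM in KO members and 269 CPM in WT members, beside 324 CPM (KO) and 340 CPM (WT) in the lowest decile. Among them Mylk, a myosin kinase, had 321 CPM in KO members and 157 CPM in WT members, a ratio of KO over WT of 1.03 on the log2 scale (95% interval 0.61 to 1.48). The part of these cells in the results was not tested. The 14 Sertoli markers summed to 5227 CPM in KO members and 5347 CPM in WT members, above the free RNA at 681 CPM in KO and 277 CPM in WT. Most of it came from Defb19, with 3490 CPM in KO and 3513 CPM in WT, and Clu, with 1182 CPM in KO and 1358 CPM in WT. Sertoli barcodes carried Defb19 at 4770 CPM in KO and 6101 CPM in WT. Ctsl had 302 CPM in KO members and 230 CPM in WT members, beside 41.6 and 21.6 CPM in free RNA. Aard had 100 and 112 CPM, beside 32.9 and 14.4 CPM, and Cst9 75.3 and 85.3 CPM, beside 68.1 and 40.2 CPM. Of the 14 markers 1 had 0 UMIs in KO members and 5 in WT members. Fshr, the FSH receptor that defines Sertoli cells, had 0 UMIs in members of both libraries. Amh had 1 UMI in KO and 0 in WT, and Sox9 had 13 UMIs in KO and 1 in WT.

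Germ cell genes were present as well. The 10 markers of elongating spermatids summed to 2920 CPM in KO members and 2513 CPM in WT members, below the 10335 CPM (KO) and 11465 CPM (WT) of the lowest decile. Markers of spermatocytes summed to 2218 CPM in KO members and 1433 CPM in WT members. The lowest decile was again higher, at 8283 CPM in KO and 7990 CPM in WT. These are shares of UMIs, and members are deeper, so lower values do not mean fewer such UMIs per barcode. No doublet caller was run on the members, and the part of germ cell RNA in the results was not tested.

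Among genes that bind or mark mRNA, Igf2bp1 itself had 3 UMIs over the 349 KO members and 0 UMIs over the 39 WT members. A count of 0 allows up to 3 UMIs, so Igf2bp1 was at or under the detection floor in both and its loss cannot be read in these cells. Igf2bp2 had 3 UMIs (1.30 CPM) in KO members and 3 UMIs (9.84 CPM) in WT members, which is at the floor in both. Igf2bp3 had 77 UMIs (33.3 CPM) in KO members and 5 UMIs (16.4 CPM) in WT members. Its share of UMIs was larger in other barcodes, at 89.3 CPM in KO and 98.9 CPM in WT.

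The 9 genes of the rule showed a smaller marker load per KO member. Together they made up 3.47% of the UMIs of KO members and 5.19% of those of WT members, and the median member had 216 of their UMIs in KO and 359 in WT. The genes inside this sum went opposite ways, which is read only as a description because these genes chose the members. Insl3 and Fabp3 were lower in KO, whereas Cyp11a1 was higher.

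Insl3 (ENSMUSG00000079019, chr8:71689214-71690575 on the plus strand, GENCODE vM21 on GRCm38, the build also called mm10) had 20432 CPM in KO members and 35246 CPM in WT members. The log2 ratio of KO over WT was −0.79 (95% interval −0.82 to −0.76). Per 10000 UMIs of a member, the 10th percentile, median and 90th percentile of Insl3 were 111, 199 and 313 in KO members, against 164, 364 and 569 in WT members. The WT median lay above the KO 90th percentile, and the ranges overlapped. Under the alternatives tried, the log2 ratio ran between −0.99 and −0.53.

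Fabp3, a fatty acid binding protein, had 7012 CPM in KO members and 9749 CPM in WT members (log2 ratio −0.48, −0.53 to −0.42). Star, the cholesterol importer and the acute switch of steroid output, had 941 CPM in KO and 1138 CPM in WT (−0.28, −0.44 to −0.11). Lhcgr, the receptor for luteinising hormone, had 164 UMIs (71.0 CPM) in KO and 26 UMIs (85.3 CPM) in WT, and its interval of −0.87 to 0.39 spans 0. Hsd17b3, which makes testosterone from androstenedione, had 348 CPM in KO and 433 CPM in WT (−0.31, −0.58 to −0.04).

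Cyp11a1, the enzyme that cuts the cholesterol side chain (ENSMUSG00000032323, chr9:58006411-58027023, plus strand), had 1502 CPM in KO members and 886 CPM in WT members. Its log2 ratio was 0.76 (0.58 to 0.95), the highest of the 9, and it lay between 0.66 and 1.35 under the alternatives tried. Per 10000 UMIs the median member had 13.2 in KO and 9.19 in WT, and the 90th percentile was 32.0 in KO and 17.2 in WT. Cyp17a1, which converts progestogens to androgens, had 2049 CPM in KO and 1702 CPM in WT (0.27, 0.14 to 0.40).

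**Figure D2:**
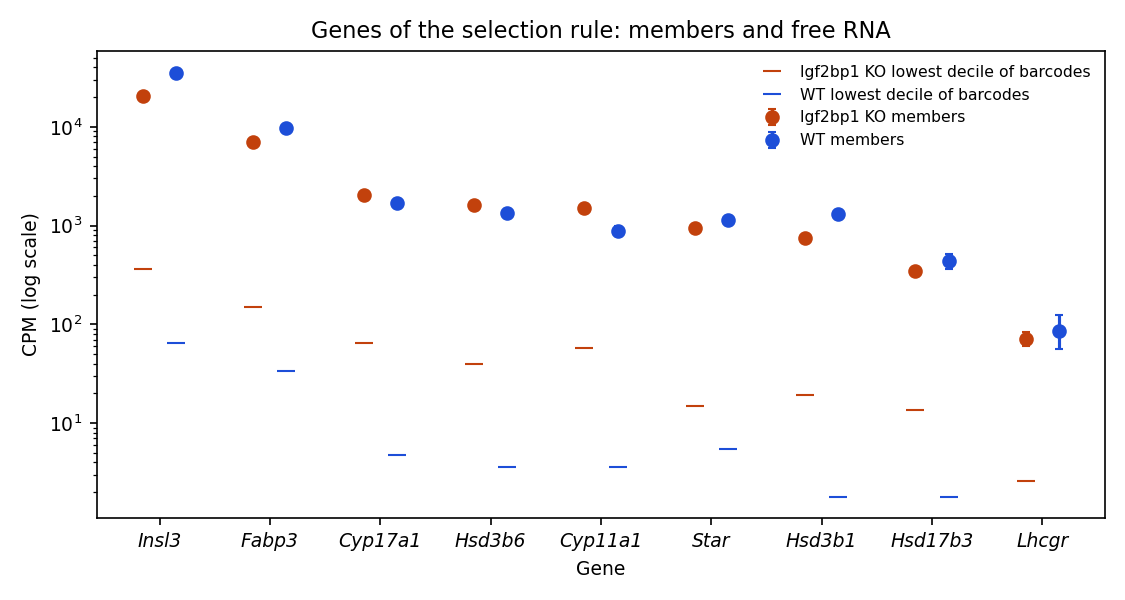
CPM (log scale) of the 9 rule genes in members (points with exact Poisson 95% intervals) and in the lowest decile of barcodes by UMIs (dashes, free RNA), with KO left of WT for each gene. Insl3 is at 20432 CPM in KO and 35246 CPM in WT, and Cyp11a1 at 1502 CPM in KO and 886 CPM in WT; each gene lies far above its free RNA dash, and the dashes are higher in KO. No WT dash is drawn for Lhcgr, which had 0 UMIs there.

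The 3β-hydroxysteroid dehydrogenase genes Hsd3b1 and Hsd3b6 went different ways. Both act at the same step, after side chain cleavage. In the mouse Hsd3b6 is known as an isoform of adult Leydig cells, and Hsd3b1 is also used by fetal Leydig cells and the adrenal gland. Hsd3b1 (chr3:98852194-98859794, minus strand) had 740 CPM in KO members and 1299 CPM in WT members (log2 ratio −0.81, −0.97 to −0.65). Hsd3b6 (chr3:98805504-98814443, minus strand) had 1631 CPM in KO and 1345 CPM in WT (0.28, 0.13 to 0.43). Hsd3b1 stayed below 0 under all alternatives tried, between −0.93 and −0.14. Hsd3b6 was below 0 in members with at most 5 UMIs of other somatic markers (−0.11) and in sub-group 4 of the members, described below (−0.36). The last 300 bases of their longest coding transcripts are 70.1% identical, so reads from this end can be told apart at many positions, but how the counting treated shared stretches was not tested.

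The stretches just upstream of these neighbouring genes are shown because the genes share a step of the pathway and differ in their ratio. They are the 250 bases before the annotated start, from RefSeq on GRCm38.p6, both on the minus strand, at chr3:98859795-98860044 for Hsd3b1 and chr3:98814444-98814693 for Hsd3b6. Capitals mark bases that a pairwise alignment set against an identical base of the other gene, 127 of 226 aligned positions (56.2%).
Hsd3b1: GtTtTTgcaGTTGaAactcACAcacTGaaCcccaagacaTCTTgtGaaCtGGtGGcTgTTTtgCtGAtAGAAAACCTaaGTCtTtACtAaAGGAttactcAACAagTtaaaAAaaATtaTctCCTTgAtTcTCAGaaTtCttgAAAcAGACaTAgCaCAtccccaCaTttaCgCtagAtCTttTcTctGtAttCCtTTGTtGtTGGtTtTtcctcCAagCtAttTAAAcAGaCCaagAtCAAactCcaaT
Hsd3b6: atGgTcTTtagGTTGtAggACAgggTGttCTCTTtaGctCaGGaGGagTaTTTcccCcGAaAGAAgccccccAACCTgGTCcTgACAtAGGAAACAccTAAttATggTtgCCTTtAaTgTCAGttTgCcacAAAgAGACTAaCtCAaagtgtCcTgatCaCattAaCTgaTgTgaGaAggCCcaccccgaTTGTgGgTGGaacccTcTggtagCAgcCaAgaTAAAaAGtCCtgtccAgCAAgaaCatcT
The motif AAGGTCA, a form of the site that NR5A1 is known to bind, was searched on both strands of these 250-base windows. It was found in 0 of the 8 windows of the 7 rule genes that have an entry in the promoter table, against 1340 of all 32851 windows (4.08%). This says only that these letters are not in the windows.

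Across the 3087 genes with a mean of at least 50 CPM over the KO and WT members, 44 (1.43%) were at least 2-fold higher in KO and 27 (0.875%) at least 2-fold lower, or 71 either way (2.3%). The median log2 ratio of all measured genes was 0.05. These are counts past a fixed size and not of genes shown to differ between genotypes. The 39 WT members limit them: a gene at 50 CPM rests on few WT UMIs. Among the 707 genes with a mean of at least 200 CPM the counts were 5 higher and 4 lower.

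Ly6d, a small protein on the cell surface that is also known as a marker of early B lineage cells, had the highest ratio. It had 800 UMIs (346 CPM) in KO members and 14 UMIs (45.9 CPM) in WT members, a log2 ratio of 2.92 (2.16 to 3.79). Of the WT UMIs, 42.9% came from 1 barcode. Ly6d also differed outside the members, with 47.0 CPM in other KO barcodes and 0.0997 CPM in other WT barcodes, and 9.54 CPM in the lowest decile of KO and 0 in that of WT. The KO barcodes just under the marker minimum, with 40 to 79 UMIs of the rule genes, carried 335 CPM. Its transcripts were concentrated in few cells. In KO, 19 members with at least 10 Ly6d UMIs held 672 of the 800, and no WT member reached 10. These 19 members had a rule gene share of 3.62%, beside 3.46% in the other 330 KO members, and carried 216 CPM of the B lymphocyte markers beside 123 CPM in the others. After thinning to 5000 UMIs per barcode, 22.3% of 274 KO members and 5.71% of 35 WT members had a Ly6d UMI, and as deposited 23.8% and 12.8% of all KO and WT members. In Sertoli barcodes, which should lack the gene, the thinned share was 4.48% of 67 in KO and 0 of 32 in WT (exact upper bound 10.9%). These were only the Sertoli barcodes with at least 5000 UMIs. All 749 Sertoli barcodes in KO and 440 in WT had median depths of 2002 and 1498.5 UMIs. The thinned share of WT members rests on 2 barcodes and has an exact interval of 0.700 to 19.2%, beside 17.5 to 27.7% for KO members. The part of B lineage RNA in the Ly6d result was not tested.

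Cyp21a1 encodes the steroid 21-hydroxylase, which the adrenal cortex uses to make corticosterone and aldosterone. It had 448 UMIs (194 CPM) in KO members and 10 UMIs (32.8 CPM) in WT members, a log2 ratio of 2.56 (1.67 to 3.63). Thinned to 5000 UMIs, 32.1% of KO members (26.6 to 38.0%) and 8.57% of WT members (1.80 to 23.1%) had a UMI. As deposited the shares were 33.0% in KO and 10.3% in WT. The thinned share in Sertoli barcodes was 5.97% in KO and 3.12% in WT. Free RNA carried 6.94 CPM in KO and 0.600 CPM in WT. The gene lies at chr17:34801348-34804561 on the minus strand beside a pseudogene copy, so its count is uncertain where reads fit both. Of the WT UMIs, 40.0% came from 1 barcode. Further genes known from the adrenal cortex were near 0: Mc2r, the corticotropin receptor, had 0 UMIs in members of both libraries, and Akr1b7 had 5 UMIs in KO and 2 in WT.

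Serpina3n and Lrg1 were next in the ranking. Serpina3n, a protease inhibitor of inflamed tissue, had 411 CPM in KO members and 112 CPM in WT members (log2 ratio 1.88, 1.39 to 2.42). Per 10000 UMIs its median over members was 2.31 in KO and 0 in WT. Lrg1, a secreted leucine-rich glycoprotein, had 497 CPM in KO and 180 CPM in WT (1.46, 1.07 to 1.88).

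The other genes among the 10 highest by the interval bound nearest to 0 were metabolic or of the Ly6 family. Fads1, the Δ5 fatty acid desaturase, had 261 CPM in KO members and 108 CPM in WT members (1.27, 0.76 to 1.82). Aldh1a7, an aldehyde dehydrogenase, had 99.6 CPM in KO and 29.5 CPM in WT (1.75), from 9 WT UMIs. Nat8, an N-acetyltransferase, had 154 CPM in KO and 59.0 CPM in WT (1.38). Ly6k, a Ly6 protein of germ cells, had 217 CPM in KO and 88.6 CPM in WT (1.29), but 81.5% of its WT UMIs came from 1 barcode and free RNA carried 98.4 CPM in KO and 81.6 CPM in WT.

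**Figure D3:**
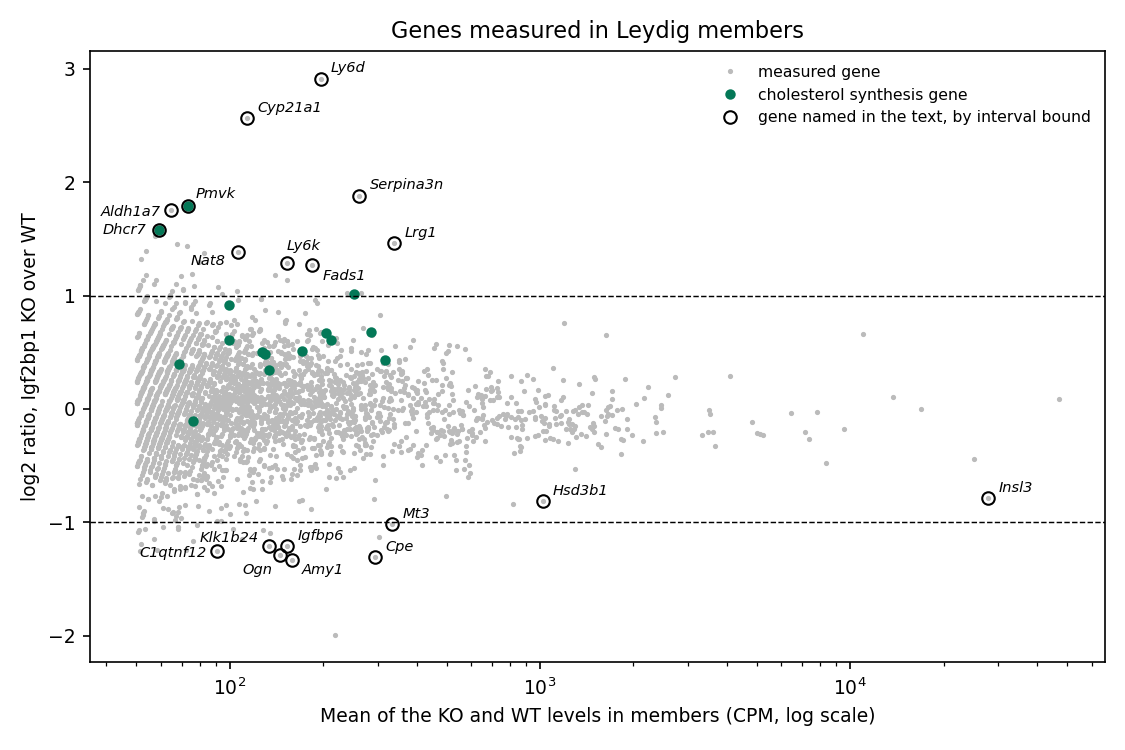
Each point is 1 of the 3087 measured genes: the mean of its KO and WT levels in members (horizontal axis, CPM, log scale) against the log2 ratio of KO over WT (vertical axis); dashed lines mark 2-fold. Open circles mark 19 genes that the text names for a high or low interval bound, from Ly6d at 2.92 to Amy1 at −1.33, and green points mark cholesterol synthesis genes, 14 of 15 of which lie above 0.

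The genes of cholesterol synthesis were higher as a group. Of 18 listed enzymes 15 were measured, and 14 of the 15 (93.3%) had a log2 ratio above 0, beside 1728 of all 3087 genes (56.0%). Their median log2 ratio was 0.61, beside 0.05 for all measured genes. The 1 other enzyme lay below 0 by less than 2-fold. The number past 2-fold was 3 upward, among them Pmvk and Dhcr7, and 0 downward, beside 1.43% and 0.875% of all measured genes. The list was chosen with earlier results of these data known, so its count describes these libraries.

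Summed over the 18 enzymes, KO members had 2917 CPM and WT members 1840 CPM, a log2 ratio of 0.66 (0.54 to 0.79). Free RNA held 833 CPM in KO and 722 CPM in WT. Per 10000 UMIs the 10th percentile, median and 90th percentile of the sum were 12.8, 27.1 and 49.6 in KO members, against 6.90, 18.8 and 26.3 in WT members. The KO median lay above the WT 90th percentile, and the ranges overlapped, from 2.29 to 99.0 in KO and from 2.74 to 62.2 in WT.

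The difference ran along the pathway. Hmgcs1, which makes HMG-CoA, had 363 CPM in KO members and 269 CPM in WT members (log2 ratio 0.43, 0.10 to 0.78). Pmvk, the phosphomevalonate kinase (chr3:89454541-89469013, plus strand), had 262 UMIs (113 CPM) in KO and 10 UMIs (32.8 CPM) in WT, a log2 ratio of 1.79 (0.89 to 2.87).

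Fdft1, which joins farnesyl units into squalene, had 255 CPM in KO members and 167 CPM in WT members (0.61). Its share of UMIs was larger in free RNA, at 366 CPM in KO and 318 CPM in WT. Sqle, the squalene epoxidase, had 120 CPM in KO and 78.7 CPM in WT (0.61). Cyp51, the lanosterol demethylase, had 250 CPM in KO and 157 CPM in WT (0.67), and Msmo1, which acts after it, had 351 CPM in KO and 220 CPM in WT (0.68).

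Dhcr7 had the highest ratio of the sterol steps. This enzyme, which turns 7-dehydrocholesterol into cholesterol, had 204 UMIs (88.3 CPM) in KO members and 9 UMIs (29.5 CPM) in WT members, a log2 ratio of 1.58 (0.63 to 2.73). Nsdhl, a sterol dehydrogenase, had 130 CPM in KO and 68.9 CPM in WT (0.92, 0.28 to 1.63).

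**Figure D4:**
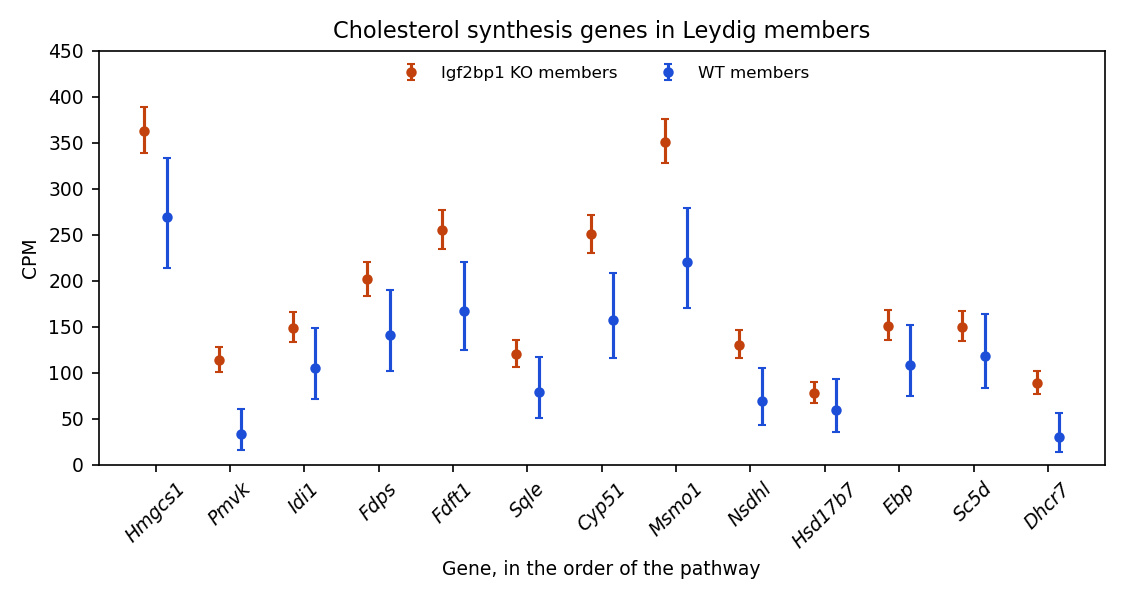
CPM (vertical axis, from 0) of 13 measured cholesterol synthesis enzymes in KO members (left of each pair) and WT members, in the order of the pathway, with exact Poisson 95% intervals for counting error. The KO point is above the WT point for the 13 genes drawn, while over all 15 measured enzymes 14 lay above 0; examples are Sc5d at 150 CPM in KO and 118 CPM in WT and Pmvk at 113 CPM in KO and 32.8 CPM in WT.

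Regulators and carriers of cholesterol differed less. The 8 measured genes of uptake, storage and control had a median log2 ratio of 0.24. Of them 1 passed 2-fold upward and 0 downward, beside 1.43% and 0.875% of all measured genes. The 1 gene was Insig1, which holds the SREBP complex in the endoplasmic reticulum and is itself switched on by SREBP, with 228 UMIs (98.7 CPM) in KO members and 11 UMIs (36.1 CPM) in WT members (log2 ratio 1.45, 0.59 to 2.47). In sub-group 4 alone Insig1 had the opposite direction, at −1.24, from 2 KO UMIs and 4 WT UMIs. Srebf2, which encodes SREBP2, had 65.8 CPM in KO and 49.2 CPM in WT (0.42, −0.35 to 1.29). Soat1, which esterifies cholesterol for storage, had 235 CPM in KO and 243 CPM in WT (−0.05).

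SREBP proteins are known to act through sterol regulatory elements near the start of such genes. The motif TCACNCCAC, a form of that element, was searched on both strands of the 250 bases before the start, from RefSeq on GRCm38.p6. It was present in 1 of the 16 windows of the 13 cholesterol synthesis genes found in the table, against 346 of all 32851 windows (1.05%). That window belongs to Hmgcs1, at chr13:119690101-119690350 on the plus strand, and is shown with the motif in capitals, starting 137 bases before the start site.
Hmgcs1: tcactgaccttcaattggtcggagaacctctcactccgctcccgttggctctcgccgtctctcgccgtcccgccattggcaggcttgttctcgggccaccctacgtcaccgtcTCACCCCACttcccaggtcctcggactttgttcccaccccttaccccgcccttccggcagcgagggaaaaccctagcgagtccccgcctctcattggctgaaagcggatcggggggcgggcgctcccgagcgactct
A match is a description of the letters, and the other 12 genes having none in this window says nothing of the factor.

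The rest of the steroid machinery showed no such shift. The 9 measured genes for electron transfer to the steroid enzymes and for import had a median log2 ratio of −0.10. Of them 0 passed 2-fold either way, beside 2.3% of all measured genes. Fdx1, the ferredoxin that feeds electrons to CYP11A1, had 769 CPM in KO members and 922 CPM in WT members (−0.26, −0.44 to −0.07). Fdxr, its reductase, had 174 CPM in KO and 243 CPM in WT (−0.48, −0.84 to −0.11). Dbi, an acyl-CoA binding protein of the outer mitochondrial import complex, had 1241 CPM in KO and 964 CPM in WT (0.36, 0.19 to 0.54). The 8 measured genes of luteinising hormone and cyclic AMP signalling had a median of −0.15. Of them 0 passed 2-fold upward and 1 downward, beside 1.43% and 0.875% of all measured genes. The 1 gene was Rasd1, a small GTPase induced by hormones, with 46.8 CPM in KO and 105 CPM in WT (−1.17, −1.75 to −0.55).

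Other genes of Leydig identity had a median log2 ratio of −0.27 over 10 measured genes. Of these 0 passed 2-fold upward and 1 downward, beside 1.43% and 0.875% of all measured genes. Summed over the 14 listed genes, the level was 19297 CPM in KO members and 19311 CPM in WT members (log2 ratio −0.001, −0.04 to 0.04). Ptgds, the prostaglandin D synthase that is abundant in adult Leydig cells, had 14222 CPM in KO members and 13239 CPM in WT members (0.10, 0.06 to 0.15). Vcam1, an adhesion molecule of adult Leydig cells, had 1194 CPM in KO and 1414 CPM in WT (−0.24). Sult1e1, the estrogen sulfotransferase, had 452 CPM in KO and 617 CPM in WT (−0.45, −0.67 to −0.21). The kallikrein genes Klk1b21, Klk1b24 and Klk1b27, which lie together on chromosome 7, were lower. Klk1b24 had 81.0 CPM in KO members and 187 CPM in WT members (−1.21, −1.64 to −0.75). Klk1b21 had 77.1 CPM in KO and 138 CPM in WT (−0.84). Klk1b27 had 59.8 CPM in KO and 112 CPM in WT (−0.90). The last 300 bases of the Klk1b24 transcript are 94.7% identical to those of Klk1b21 and 91.6% to those of Klk1b27, so the split of reads between them is uncertain. Within sub-group 4, which these genes lead, Klk1b21 and Klk1b27 had the opposite direction, at log2 ratios of 0.34 and 0.33, and Klk1b24 was at −0.21.

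Genes of fetal or progenitor Leydig cells were mostly too low to compare. Of 9 such genes 2 were measured. Nr2f2, a nuclear receptor of Leydig progenitors, had 224 UMIs (97.0 CPM) in KO members and 16 UMIs (52.5 CPM) in WT members (log2 ratio 0.89, 0.15 to 1.72). Mesenchymal marker genes, which such progenitors and other interstitial cells also use, summed to 267 CPM in KO members and 256 CPM in WT members. Pdgfra had 55.0 CPM in KO and 49.2 CPM in WT (0.16).

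Genes lower in KO members included secreted and metal-binding proteins. Cpe, the carboxypeptidase that trims peptide hormones (chr8:64592542-64693054, minus strand), had 392 UMIs (170 CPM) in KO and 128 UMIs (420 CPM) in WT, a log2 ratio of −1.31 (−1.60 to −1.01). Per 10000 UMIs its median over members was 1.38 in KO and 3.92 in WT. Igfbp6, a binding protein of insulin-like growth factors, had 92.2 CPM in KO and 213 CPM in WT (−1.21, −1.62 to −0.79). Of its 65 WT UMIs, 30.8% came from 1 barcode, and 25 from the WT members of sub-group 2. In sub-group 1 it had 83.8 CPM in KO and 83.7 CPM in WT, the latter from 5 UMIs. Under the alternatives its log2 ratio ran from −1.51 to −0.51. It was under 2-fold with rule genes at 4% or more (−0.51), few other somatic markers (−0.68) and a marker minimum of 160 UMIs (−0.76). Ogn, a proteoglycan of the matrix, had 84.4 CPM in KO and 207 CPM in WT (−1.29). Both Igfbp6 and Ogn were also present in the mesenchymal barcodes, Igfbp6 at 703 CPM in KO and 1801 CPM in WT, and Ogn at 65.3 CPM in KO and 292 CPM in WT.

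Mt3, a metallothionein, had 221 CPM in KO members and 446 CPM in WT members (−1.01, −1.29 to −0.73). Amy1, an amylase, had 90.1 CPM in KO and 226 CPM in WT (−1.33), and C1qtnf12, a secreted metabolic hormone, had 53.7 CPM in KO and 128 CPM in WT (−1.25). The lowest ratio of any measured gene belonged to the uncharacterised 9230104L09Rik, which the naming rule leaves out and which was singled out after its values were seen: 87.5 CPM in KO and 348 CPM in WT (−1.99, −2.34 to −1.64). It was uneven over WT members, where after thinning the mean was 1.91 UMIs, the median 0, the 90th percentile 5 and the variance 9.47 times the mean.

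Secreted immune factors had a median log2 ratio of 0.62 over 6 measured genes, beside 0.05 for all measured genes. None passed 2-fold either way, beside 2.3% of all measured genes. Of the 6, 5 (83.3%) lay above 0, beside 56.0% of all measured genes. Mif, a macrophage cytokine, was the 1 below 0, with 297 CPM in KO members and 305 CPM in WT members (−0.04). Lcn2, an iron-scavenging lipocalin of acute-phase responses (chr2:32384633-32388252, minus strand), had 13450 CPM in KO members and 8479 CPM in WT members (0.67, 0.61 to 0.72). Per 10000 UMIs its 10th percentile, median and 90th percentile were 37.8, 118 and 261 in KO, against 16.4, 80.2 and 153 in WT. Cxcl12, a chemokine that retains lymphocytes, had 184 CPM in KO and 102 CPM in WT (0.86, 0.33 to 1.43). Cxcl1, a neutrophil chemokine, had 553 CPM in KO and 371 CPM in WT (0.58, 0.30 to 0.87). Cxcl10, a chemokine induced by interferon, had 77.1 CPM in KO and 42.6 CPM in WT (0.85, 0.04 to 1.79). The 5 measured interferon response genes had a median of 0.29, from Bst2 at −0.64 to Ifitm2 at 0.69. Of them 0 passed 2-fold either way, beside 2.3% of all measured genes.

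Immediate early genes, which respond to stress and to tissue dissociation within the hour, did not differ as a group. Of 16 measured, 0 passed 2-fold either way, beside 2.3% of all measured genes. The median log2 ratio was 0.05, the same as for all measured genes. Fos had 1563 CPM in KO members and 1683 CPM in WT members (−0.11, −0.24 to 0.03), and Egr1 had 1054 CPM in KO and 1023 CPM in WT (0.04). Ier3 had the highest ratio of the list, 334 CPM in KO and 203 CPM in WT (0.72, 0.34 to 1.11). Per 10000 UMIs the list summed to medians of 93.7 in KO and 80.2 in WT.

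The measured genes of several other groups stayed within 2-fold. Of all measured genes only 2.3% passed 2-fold either way, so a count of 0 in lists this short is no result about them. None of 10 measured genes of endoplasmic reticulum stress (median 0.08), 7 heat shock genes (0.13) and 21 antioxidant and glutathione genes (−0.18) passed 2-fold. Nor did any of 22 nuclear genes of the respiratory chain (−0.18) or 23 ribosomal protein genes (−0.11). The list of the Igf2bp family and m6A marking had 5 measured genes (0.06), and none of them passed 2-fold. Igf2bp1, Igf2bp2 and Igf2bp3 were too low to be called measured, so they are not among these 5. The share of genes above 0, 56.0% of all measured genes, was lower in some of these lists. It was 31.8% for the respiratory chain (7 of 22), 26.1% for ribosomal proteins (6 of 23) and 33.3% for antioxidants (7 of 21). In that order, the log2 ratios of their sums were −0.22 (−0.27 to −0.17), −0.11 (−0.14 to −0.08) and −0.15 (−0.19 to −0.12). The share was higher for endoplasmic reticulum stress (7 of 10), heat shock (5 of 7) and the Igf2bp list (4 of 5). Among antioxidant genes the abundant glutathione transferase Gstm1 had 6683 CPM in KO members and 8017 CPM in WT members (−0.26, −0.32 to −0.20). Of 2 measured senescence genes Cdkn1a, the cell cycle inhibitor p21, passed 2-fold downward with 80 UMIs (34.6 CPM) in KO and 22 UMIs (72.2 CPM) in WT (−1.06, −1.75 to −0.31), but 59.1% of its WT UMIs came from 1 barcode. Among members whose rule genes made up at least 4% of their UMIs it was higher in KO, at 1.31. Of 4 measured genes of the insulin-like growth factor axis, Igfbp4 passed 2-fold upward from 10 WT UMIs (1.10, 0.18 to 2.18) and Igfbp6 downward.

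**Figure D5:**
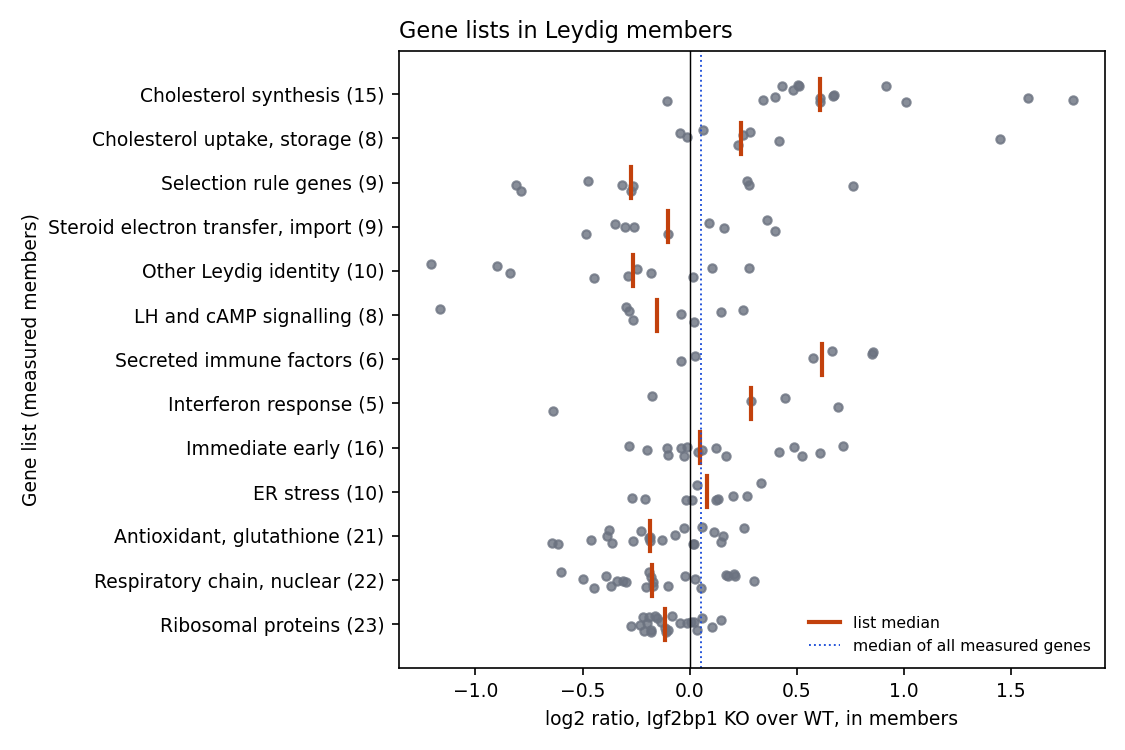
Log2 ratio of KO over WT in members (horizontal axis) for the measured genes of 13 lists (vertical axis, number of genes in brackets); grey points are genes, orange bars list medians, and the dotted blue line the median of all measured genes at 0.05. The highest medians are those of secreted immune factors (0.62) and cholesterol synthesis (0.61), and the lowest those of the selection rule genes (−0.28) and of other Leydig identity genes (−0.27).

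The members varied among themselves. Clustering both libraries together on 2000 variable genes, without the rule genes, the mitochondrial genes and the 4 spermatid genes, gave 5 sub-groups. They are called by number, since no marker list was written for kinds of Leydig cell. Against all other kept barcodes, the 10 leading genes of each sub-group held between 1 and 5 Leydig genes, counting rule genes, and 0 markers of another cell class. The only Leydig gene was Star in sub-group 2 and Hsd3b1 in sub-group 3, which are rule genes that chose the members. The other kept barcodes include germ cells, so the count of 0 does not speak to germ cell RNA. The genes leading the sub-groups below are a description, because the clustering used them. Sub-group 1 was led by Cyp21a1, Birc3, C4b and Fosb and carried 11133 CPM of immediate early genes. Sub-group 2 carried more of these, at 12089 CPM, while sub-group 4 had 7295 CPM and sub-group 5 had 2405 CPM. Sub-group 2 was led by Ly6a, C3, Igfbp4 and Nupr1, with mesenchymal markers at 634 CPM beside 192 CPM in the other members. Sub-group 3 was led by AY036118, Agt and Srek1 and had 973 CPM of immediate early genes beside 9684 CPM in the others. Sub-group 4 was led by Klk1b27, Klk1b21, Klk1b24, Mt3 and Amy1, and its rule genes had the highest level, 54397 CPM. Sub-group 5 was led by germ cell genes such as Fsip1 and Pbp2, with the rule genes at 15464 CPM and a median of 132 protamine and transition protein UMIs. Its spermatocyte markers summed to 5274 CPM, beside 1742 CPM in the other members.

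The libraries differed in the sub-group that held the largest number of their members. Sub-group 1 held 189 of the 349 KO members and 8 of the 39 WT members, and sub-group 4 held 27 KO and 19 WT members. The other sub-groups held 61 KO and 5 WT (sub-group 2), 47 KO and 5 WT (sub-group 3), and 25 KO and 2 WT members (sub-group 5). Their leading genes are among those that differ between the libraries, so the sizes are given only to say where the compared cells lie. Within sub-group 4, the only one with over 10 WT members, Insl3 had 25332 CPM in KO and 40802 CPM in WT, and Cyp11a1 had 2825 CPM in KO and 1111 CPM in WT. Cholesterol synthesis genes summed to 2091 CPM in KO and 1603 CPM in WT there, and to 3293 CPM in KO and 2461 CPM in WT in sub-group 1. Secreted immune genes summed to 24053 CPM in KO and 12525 CPM in WT in sub-group 4. Mt3 at a log2 ratio of −0.04 and Hsd3b1 at −0.14 came closer to 0 in sub-group 4 than over all members. Cyp21a1 was at 1.34 there and Ly6d at 2.41.

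Ly6d was uneven over the members. Among KO members thinned to 5000 UMIs it had a mean of 1.58 UMIs, a median of 0 and a variance 22.6 times its mean, where random sampling of an even level would give about the mean itself. Cyp21a1 had a mean of 1.03 UMIs and a variance 5.22 times its mean. Among the abundant genes Lcn2 had a variance 34.2 times its mean, Ptgds 33.0 times and Insl3 15.8 times. Per 10000 UMIs, Hsd3b1 ran from a 10th percentile of 0 to a 90th percentile of 22.6 in KO members, and from 0 to 35.7 in WT members.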

How the data were processed

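The authors deposited 1 matrix of UMI counts for each library, not normalized, with genes in rows and barcodes in columns. Cell Ranger 2.2.0, STAR and mm10 are named in the submitters' processing notes; the matrix headers name software 3.1.0, and which was used was not settled. The sources used here do not say how cells were called or whether counting used strand.

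Counts were summed per library over members and given as CPM with exact Poisson 95% intervals (scipy 1.17.1). The KO over WT ratio has an exact conditional binomial interval. A count of 0 was set to a floor of 3. Genes with a mean of the KO and WT CPM of at least 50 were called measured, and 2-fold is a fixed size, not a test. Intervals and floors cover counting error only. The code was tested on simulated counts. Lowest-decile barcodes, by UMIs within each library, stand for free RNA. Sertoli, macrophage and mesenchymal barcodes had at least 10 UMIs of that marker list and under 40 of the rule genes. Sub-groups were Leiden clusters (scanpy 1.11.5, leidenalg 0.10.2; 20 components, 15 neighbours, resolution 0.5). TMM factors came from edgeR 4.0.16. Coordinates are from GENCODE vM21; 30934 of 31053 gene IDs matched.

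The members and gene lists were chosen with earlier results of these data known. Named genes were the rule genes, the Igf2bp family, up to 4 measured genes per list with the largest absolute log2 ratio, the 10 highest and 10 lowest ratios by the interval bound nearest to 0 (without numbered gene models and mitochondrial, ribosomal protein, haemoglobin, immunoglobulin and sex-linked genes) and the 20 genes outside the rule highest in members over other barcodes. Further genes of the lists are named to follow a pathway. Some genes that the rule picks are not reported here. No doublet caller was run.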

Additional observations from a re-analysis of the deposited data

Results flagged for a closer look

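Barcodes with at least 80 UMIs of the 9 Leydig genes but Prm1, Prm2, Tnp1 and Tnp2 UMIs at or above the spermatid limit lie outside the members and were not used in the comparisons. There were 627 of them in KO and 11 in WT. They held a median of 16850 UMIs and 113 rule gene UMIs in KO, and 25073 UMIs and 373 rule gene UMIs in WT, so the rule genes made up 0.697% of their UMIs in KO and 0.948% in WT. Insl3 stood at 4461 CPM in these KO barcodes and 6704 CPM in the WT ones. They are flagged as signal in data outside the comparisons.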

How the results depend on the processing

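No paired analysis was possible because each genotype has 1 library. Of 23 genes that the naming rule picks past 2-fold, 23 kept their direction and 16 to 23 were still past 2-fold under each alternative with gene values, other than the next 2. With rule genes at 4% or more of a member's UMIs, 22 of the 23 kept their direction and 20 were still past 2-fold. In sub-group 4 alone, 22 had a value, 20 kept their direction and 12 were still past 2-fold. Cdkn1a reversed among members with rule genes at 4% or more of their UMIs (1.31) and in sub-group 4 alone (2.93), where Insig1 reversed too (−1.24); both settings, the range of 4000 to under 12000 UMIs and the members without sub-group 5 were chosen after seeing the data, and the cause was not tested.

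A protamine limit of 50 UMIs left 38 KO members (0.215%) and 0 WT members (0%), so no gene values exist there. The KO share was 2.40% with a marker minimum of 40 UMIs, 1.43% with 160 and 1.68% with a mitochondrial limit of 10%, where the WT share was 0.161%.

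The counts of genes higher and lower by 2-fold were 44 and 27 of 3087. They became 1276 and 1440 of 13135 with no filter beyond 1 UMI in each library, where most genes have few WT UMIs. They were 5 and 4 of 707 at a mean of 200 CPM and 95 and 46 of 3044 after thinning. With at most 5 UMIs of other somatic markers they were 161 and 52 of 2997. At 4000 to under 12000 UMIs they were 87 and 42 of 3021, and in sub-group 4 alone 130 and 155 of 2797. The lower count was 45 of 2780 with 1 lowest-decile barcode subtracted per member and 42 of 2928 with rule genes at 4% or more. Scaling by median of ratios or TMM shifted ratios by −0.02 and gave 40 and 30, and 41 and 30. The 39 WT members set the depth: measured genes near the limit of 50 CPM have few WT UMIs.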
